A study of Mus musculus with 8 samples.

Results

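Complex I (NADH:ubiquinone oxidoreductase) is the largest enzyme of the mitochondrial respiratory chain. It takes electrons from NADH in its N module, passes them along iron-sulfur clusters to ubiquinone in its Q module, and pumps protons through a membrane arm, which has a proximal and a distal part. Core subunits carry out the chemistry, accessory subunits surround them, and assembly factors help to build the enzyme without being part of it. In heart muscle, which runs mainly on oxidative metabolism, its transcripts are abundant.

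Genes were chosen by symbol: all that begin with Nduf, other than Ndufa4, Ndufa4l2 and names ending in -ps, plus Acad9, Ecsit, Tmem126b, Timmdc1, Foxred1 and Nubpl. This gave 53 of 55471 genes in the count tables, made up of 36 subunits, 14 assembly factors and 3 pseudogenes that carry an Nduf symbol. The pseudogenes Ndufa11b, Ndufb4c and Ndufs6b were at or near 0 CPM (counts scaled to a common library size by TMM) in all 8 libraries and were not tested, whereas all 50 subunits and assembly factors passed the filter on low counts. The rule used no measured value. Of the excluded names, Ndufb1-ps is the only entry for Ndufb1 in the annotation used, and its log2 fold change was -0.20 (adjusted p = 0.0733 by edgeR), which was not called.

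RNA was taken from hearts of 4 WT and 4 TAZG197V male mice at 14 weeks of age. TAZG197V mice are hemizygous for a patient-derived missense change in Tafazzin, the X-linked enzyme that remodels the mitochondrial lipid cardiolipin, and serve as a model of Barth syndrome. The change was introduced by CRISPR/Cas9 in C57BL/6N zygotes, carriers were crossed with C57BL6/J, and no cell type was sorted, so the libraries hold all cells of the heart tissue. The labels name separate samples without litters. The fit held 2 surrogate variables, which are patterns of variation estimated from these same libraries. Its p-values and standard errors measure the spread between samples that is left after them.

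Total counts per library ranged from 23055689 to 36301031. Taz, the gene edited, had a log2 fold change of -0.37 (adjusted p = 0.00124 by edgeR), and a count per gene does not show the edited base. Defining cardiomyocyte transcripts were abundant in every library, and their sum over 8 genes ran from 59463 to 68273 CPM over the WT libraries and from 50666 to 54808 CPM over the TAZG197V libraries, without overlap, with 4 of the 8 called lower. Summed fibroblast markers ran from 950.4 to 1499.8 CPM in WT and from 644 to 938 CPM in TAZG197V, also without overlap, and 2 of 4 (Dcn and Pdgfra) were called lower. Summed endothelial markers ran from 614 to 877 CPM in WT and from 495 to 636 CPM in TAZG197V, with overlap, and 2 of 4 (Cdh5 and Kdr) were called lower. Of 4 macrophage markers 0 were called. Of 4 adipocyte markers only Cfd was tested, and it was called lower. Cfd was at 10.1 CPM in WT 2 against 0.0968 to 1.91 CPM in the other libraries. The adipocyte sum was 20.7 CPM in WT 2 against 0.161 to 3.45 CPM elsewhere. The part of these markers in the complex I values was not tested. Summed red cell markers reached 55072 CPM in WT 4 against 227 to 1065 CPM in the other libraries, with all 6 called lower. The brain sum reached 124 CPM in WT 4 and 302 CPM in TAZG197V 4 against 17.3 to 29.3 CPM elsewhere. Of 6 brain markers 1 (Slc1a2) was called higher, and Snap25 was not tested. In this whole tissue, fewer cells of a type and less RNA per cell cannot be told apart. Without both number 4 libraries, 13 subunits were called lower and 1 higher, and 2 assembly factors were called in each direction.

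Among transcripts of complex I subunits, 5 of 7 nuclear core subunits, 4 of 6 Q module subunits and 1 of 10 distal membrane arm subunits fell. Differences between these groups were not tested. A gene was called when its adjusted p was under 0.05, its fitted log2 fold change was beyond 0.20 in either direction (the fold change cut-off of the study) and its mean scaled count was at least 50. Of the 50 members tested, 14 fell and 3 rose, beside 33.5% of all 15084 genes tested called in either direction. Of the 36 subunits, 12 (33.3%) fell, beside 15.1% of all genes called lower, and 1 (2.78%) rose, beside 18.5% of all genes called higher. Among the 8388 genes whose mean count was at least that of the lowest subunit, 1615 were called lower and 2154 higher. The median log2 fold change was -0.09 over the subunits and -0.01 over all genes tested, and the median difference over the subunits was -0.04 within sequencing lane 7 and -0.13 within lane 8. Leaving out WT 3 gave a subunit median of -0.05 and leaving out WT 2 gave -0.14. In 10 subunits each TAZG197V library was lower than each WT library, which held for 13.9% of all genes, and in 1 subunit all lay above, which held for 19.3% of all genes. These are counts over genes that vary together between libraries, and are given as a description. The changes were modest, from -0.44 in Ndufv3 to 0.38 in Ndufa12 on the log2 scale among subunits, and no member passed a fold change of 1.5.

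**Figure D1:**
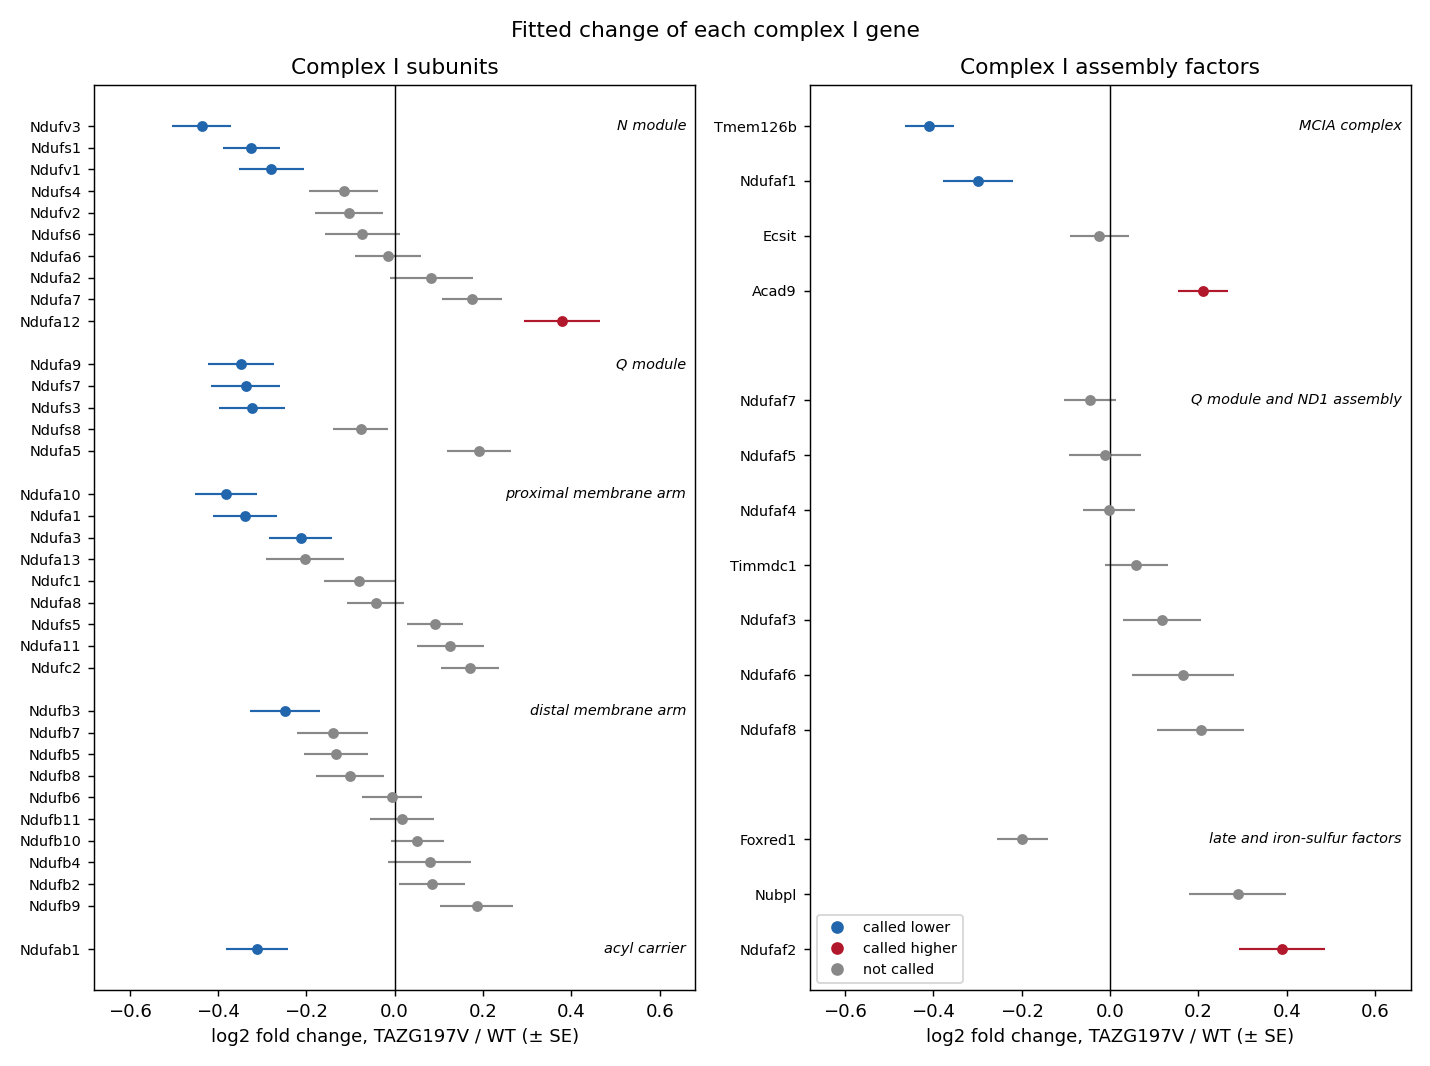
Fitted log2 fold change (TAZG197V over WT, x axis) with its standard error for 35 subunits (left) and 14 assembly factors (right), grouped by position or role on the y axis. Blue marks the 13 of these genes called lower, red the 3 called higher and grey those not called, and blue points fill most of the Q module while the distal membrane arm lies around 0.

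WT libraries differed among themselves in the same way for nearly every member. In all 36 subunits and in 13 of 14 assembly factors, WT 1 and WT 3 were both above WT 2 and WT 4, although WT 1 and WT 2 shared one sequencing lane (7) and WT 3 and WT 4 the other (8). Summed over the 36 subunits, levels were 10825, 9392, 10952 and 8951 CPM in WT 1 to WT 4 and 8921, 9482, 9258 and 8511 CPM in TAZG197V 1 to TAZG197V 4. The sums overlapped between genotypes, with WT 2 and WT 4 inside the range of TAZG197V, with means of 10030 ± 1009 CPM over the WT libraries and 9043 ± 423 CPM over the TAZG197V libraries (SD, n = 4 each). How many of all genes tested show the same split between WT libraries was not counted, so it cannot be called particular to these members. The part of this split in the calls was not tested. Each of the 14 members called lower had a negative TAZG197V minus WT difference within both lanes, and each of the 3 called higher a positive one. The lanes divide the same libraries that gave the calls, so this describes the called members and is no separate support for them.

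The N module holds the site where NADH is oxidised, and 3 of its 10 subunits fell while 1 rose. Ndufs1, the largest core subunit and carrier of several iron-sulfur clusters (mm10, as for all positions here, chromosome 1, 63143596 to 63176833), was at 879, 798, 799.8 and 787 CPM in WT 1 to WT 4, the order used throughout, and at 653, 649, 666 and 639 CPM in TAZG197V. The highest TAZG197V value was under the lowest WT value, and WT 1 stood above the other WT libraries. The log2 fold change was -0.32 ± 0.06 (SE, n = 4 per genotype), with an adjusted p of 0.00538 by edgeR.

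Ndufv1, which binds NADH and the flavin that accepts its electrons, was at 819, 725, 757 and 707 CPM in WT and at 594, 608, 648 and 628 CPM in TAZG197V, without overlap. Its log2 fold change was -0.28 ± 0.07 (adjusted p = 0.0175, edgeR), and the call was lost without TAZG197V 1 (-0.26) or TAZG197V 2 (-0.27). The partner core subunit Ndufv2, which carries an iron-sulfur cluster, was at 436 to 552 CPM in WT and at 427 to 499 CPM in TAZG197V, and with -0.10 ± 0.08 on the log2 scale (adjusted p = 0.318, edgeR) it was not called.

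Ndufv3, a small accessory subunit next to the flavin site (chromosome 17, 31520115 to 31531331), had the largest fall of any subunit. It was at 234, 201, 255 and 212 CPM in WT and at 161, 183, 174 and 158 CPM in TAZG197V. The highest TAZG197V library lay below the lowest WT library, and the log2 fold change was -0.44 ± 0.07 (adjusted p = 0.00157, edgeR).

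Ndufa12, an accessory subunit at the junction of the N and Q modules (chromosome 10, 94198720 to 94221443), was the only subunit that rose. It was at 83.8, 71.8, 92.7 and 66.2 CPM in WT and at 106, 107, 101 and 95.5 CPM in TAZG197V. Each TAZG197V library lay above all WT libraries, and the log2 fold change was 0.38 ± 0.09 (adjusted p = 0.00925, edgeR). Of its 50-base exon windows, 17.7% also occur in another annotated gene, mainly the pseudogene Gm15920, so a small part of its reads may be ambiguous. The other N module subunits Ndufa2, Ndufa6, Ndufa7, Ndufs4 and Ndufs6 were not called, with log2 fold changes from -0.12 in Ndufs4 to 0.17 in Ndufa7.

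The Q module leads electrons to ubiquinone, and 4 of its 6 subunits fell, each without overlap between genotypes. Ndufs7, which holds the last iron-sulfur cluster before ubiquinone, was at 331, 296, 354 and 272 CPM in WT and at 249.9, 265, 242 and 235 CPM in TAZG197V. Ndufs3, a core subunit without a cofactor that starts the assembly of the module, was at 171, 138, 168 and 138 CPM in WT and at 125, 128, 124 and 119 CPM in TAZG197V. In both genes every WT library was above every TAZG197V library. The log2 fold changes were -0.34 ± 0.08 for Ndufs7 (adjusted p = 0.01) and -0.32 ± 0.08 for Ndufs3 (adjusted p = 0.0107, both edgeR).

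Ndufa9, an accessory subunit that binds NADPH and lies near the ubiquinone channel (chromosome 6, 126821721 to 126849136), was at 512, 429.8, 529 and 435 CPM in WT and at 369, 385, 391 and 365 CPM in TAZG197V. The fitted log2 fold change was -0.35 ± 0.07 (adjusted p = 0.0075, edgeR). The core subunit Ndufs8, another iron-sulfur carrier, was at 180 to 230 CPM in WT and 165 to 217 CPM in TAZG197V, with -0.08 ± 0.06 on the log2 scale (adjusted p = 0.361, edgeR), and was not called. The accessory subunit Ndufa5 had a value of the opposite sign, 0.19 ± 0.07 (adjusted p = 0.0715, edgeR), and was not called.

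Counted together, 5 of the 7 nuclear core subunits fell and all 7 had negative values, from -0.34 to -0.08 with a median of -0.32. Of the 29 accessory subunits 7 fell and 1 rose, with a median of -0.04. The median over the 6 Q module genes was -0.33 and over the 10 N module genes -0.09. Neither core and accessory subunits nor the parts of the enzyme were tested against each other.

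**Figure D2:**
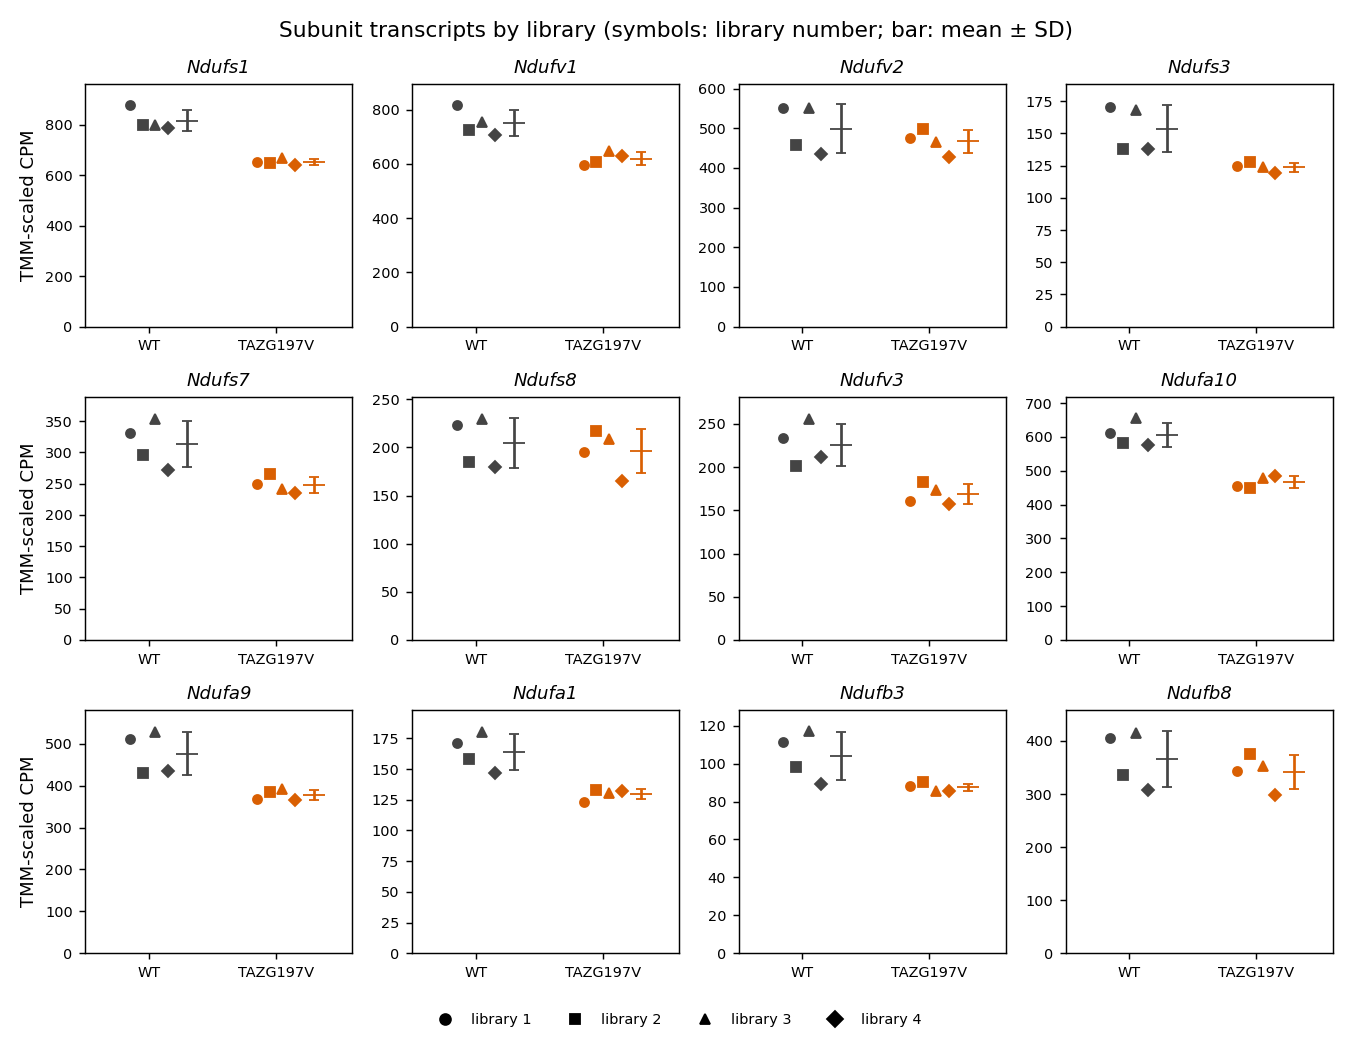
Level in TMM-scaled CPM (y axis, from 0) of 12 subunits in each WT and TAZG197V library, with the library number given by the symbol and the mean ± SD (n = 4) beside the points. The 6 core subunits drawn come first, and in Ndufs1, Ndufv1, Ndufs3 and Ndufs7 each TAZG197V point is lower than each WT point, while Ndufv2, Ndufs8 and the distal subunits Ndufb3 and Ndufb8 overlap.

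The nuclear subunits of the proximal membrane arm surround the part of the enzyme next to the ubiquinone site, and 3 of 9 fell. Ndufa10, a member of the nucleoside kinase fold family (chromosome 1, 92439010 to 92473860), was at 613, 581, 655 and 577 CPM in WT and at 456, 449, 478 and 485 CPM in TAZG197V. No TAZG197V library reached the lowest WT value, and the log2 fold change was -0.38 ± 0.07 (adjusted p = 0.00347, edgeR). The X-linked Ndufa1, a short membrane subunit needed for assembly, changed by -0.34 ± 0.07 (adjusted p = 0.00752, edgeR), again without overlap.

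Ndufa3 fell by 0.21 on the log2 scale (adjusted p = 0.0443, edgeR) with overlapping libraries, and it was called under 7 of 18 alternative fits. Omitting any library but WT 4 ended its call, with values from -0.24 to -0.18. Ndufa13, also known as GRIM-19, was not called at -0.20 ± 0.09 (adjusted p = 0.104, edgeR). The others, Ndufa8, Ndufa11, Ndufc1, Ndufc2 and Ndufs5, lay between -0.08 and 0.17, and none was called.

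In the distal membrane arm, where the outermost proton pumps lie, 1 of 10 subunits was called. Ndufb3 fell by 0.25 on the log2 scale (adjusted p = 0.0379, edgeR) from 89.2 to 117 CPM in WT to 85.7 to 90.1 CPM in TAZG197V, with overlap, and was called under 10 of 18 alternative fits. Its call was lost without WT 1, WT 3, TAZG197V 1, TAZG197V 2 or TAZG197V 3, with values from -0.26 to -0.19. The other members, Ndufb2 and Ndufb4 to Ndufb11, ranged from -0.14 in Ndufb7 to 0.19 in Ndufb9, and the median over the arm was 0.01. Ndufb4, at 9.78, 9.51, 12.3 and 9.29 CPM in WT and 10.6, 11.7, 11.7 and 9.76 CPM in TAZG197V, had the lowest WT level per exon length of all subunits, 5.34 CPM per kb, and 18.3% of its 50-base windows also occur in another annotated gene. Ndufab1, the acyl carrier protein of mitochondria, which also serves fatty acid synthesis, fell by 0.31 on the log2 scale (adjusted p = 0.00932, edgeR) from 58.7, 53.8, 59.8 and 52.2 CPM in WT to 47.6, 42.9, 44.1 and 46.6 CPM in TAZG197V, without overlap.

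Summed per part of the enzyme, the mean CPM of TAZG197V differed from that of WT by -15.2% for the Q module, -10.8% for the N module and -11.1% for the proximal membrane arm. The N module sum ran from 3006 to 3624 CPM in WT and from 2812 to 3080 CPM in TAZG197V, and the proximal membrane arm sum from 1801 to 2195 CPM and from 1710.2 to 1872 CPM, both with overlap. For the distal membrane arm the difference was -0.863%, at 2159 ± 143 CPM in TAZG197V and 2178 ± 257 CPM in WT (SD, n = 4 each). The Q module sum averaged 2463 ± 273 CPM (WT) and 2088 ± 88.1 CPM (TAZG197V), where the lowest WT library (2203 CPM) was just above the highest TAZG197V library (2180 CPM). These sums carry no test and weigh abundant subunits most.

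**Figure D3:**
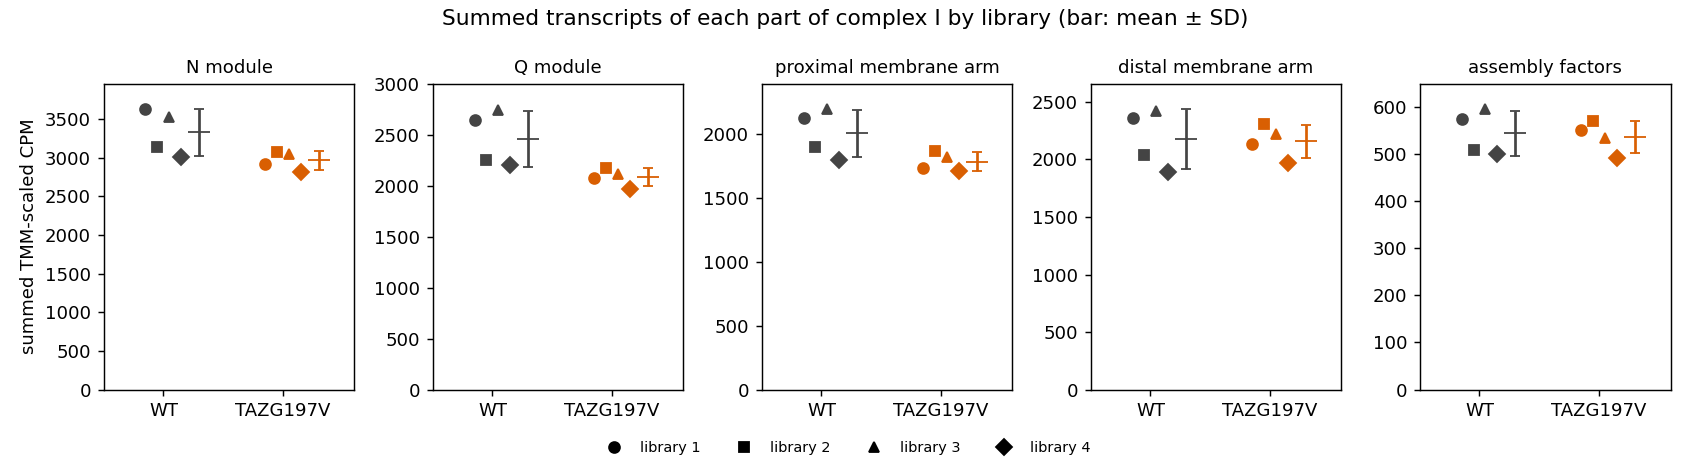
Summed TMM-scaled CPM (y axis, from 0) of the subunits of 4 parts of complex I and of the 14 assembly factors in each library, with the mean ± SD (n = 4). Q module sums of TAZG197V lie just below those of WT, while the sums of the N module, both membrane arm parts and the assembly factors overlap, and WT 1 and WT 3 are the highest WT libraries in each panel.

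Of the 14 assembly factors, 2 (14.3%) fell, 2 (14.3%) rose and 10 were not called. Both shares were under those of all genes tested, 15.1% called lower and 18.5% called higher. The median log2 fold change was 0.03, and its sign was not stable. It ranged from -0.0044 without WT 2 to 0.09 without TAZG197V 4, moved by over 1.5 times without any of the 8 libraries, and was -0.0022 without Ndufaf2. The median difference was 0.14 within lane 7 and -0.05 within lane 8, of opposite sign. Acad9, Ecsit, Ndufaf1 and Tmem126b make up much of the MCIA complex, which assembles the inner part of the membrane arm. Of these 4 genes 3 were called, in different directions, beside 33.5% of all genes tested. With so few genes this is a description.

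Tmem126b, a membrane component of MCIA (chromosome 7, 90467438 to 90476001), was at 45.4, 40.8, 44.5 and 41.3 CPM in WT and at 33.7, 34.1, 32.4 and 30.1 CPM in TAZG197V. The genotypes did not overlap, with every TAZG197V value lower, and the log2 fold change was -0.41 ± 0.06 (adjusted p = 0.000838, edgeR). Ndufaf1, another MCIA component, was at 49.8, 45.7, 55.8 and 41.6 CPM in WT and at 40.9, 43.2, 37.4 and 35.5 CPM in TAZG197V. The groups overlapped through WT 4 and TAZG197V 2, the log2 fold change was -0.30 ± 0.08 (adjusted p = 0.0185, edgeR), and the call was lost without WT 3 (-0.23).

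Acad9, an acyl-CoA dehydrogenase relative that works in MCIA, was at 47.7, 43.1, 46 and 42.8 CPM in WT and at 56.2, 54, 53.7 and 45.6 CPM in TAZG197V. TAZG197V 4 lay within the WT range, the log2 fold change was 0.21 ± 0.06 (adjusted p = 0.019, edgeR), and the call held in 11 of 18 alternative fits. It was lost without WT 2, WT 3, TAZG197V 1 or TAZG197V 2, with values from 0.18 to 0.20. Ecsit, the scaffold of the complex, had a value of -0.02 ± 0.07 and was not called.

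Ndufaf2, a paralog of Ndufa12 that occupies its place during assembly (chromosome 13, 108002715 to 108158623), was at 16.6, 14.2, 18.7 and 12.5 CPM in WT and at 20.6, 22.1, 20.5 and 18.3 CPM in TAZG197V. Its lowest TAZG197V library, TAZG197V 4, lay below WT 3, and the log2 fold change was 0.39 ± 0.10 (adjusted p = 0.0143, edgeR). This value is uncertain, because 65.6% of its exon bases overlap B230220B15Rik on the opposite strand and the strand setting of the counting was not stated. The call was lost without TAZG197V 2 (0.36). Within both lanes, which divide the libraries that gave the calls, Ndufaf2 and Ndufa12 were higher in TAZG197V.

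None of the 7 factors that act on the Q module and its junction with ND1 was called, with values from -0.05 in Ndufaf7, a methyltransferase, to 0.21 in Ndufaf8, the partner of the Ndufs7-modifying enzyme Ndufaf5. Ndufaf3, Ndufaf4, Ndufaf5, Ndufaf6 and Timmdc1 lay between. The late factor Foxred1 had a log2 fold change of -0.20 ± 0.06 (adjusted p = 0.0258, edgeR) and missed the call through its fold change. Nubpl, which delivers iron-sulfur clusters, was at 0.29 ± 0.11 (adjusted p = 0.0696, edgeR), with all TAZG197V libraries above the highest WT library.

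**Figure D4:**
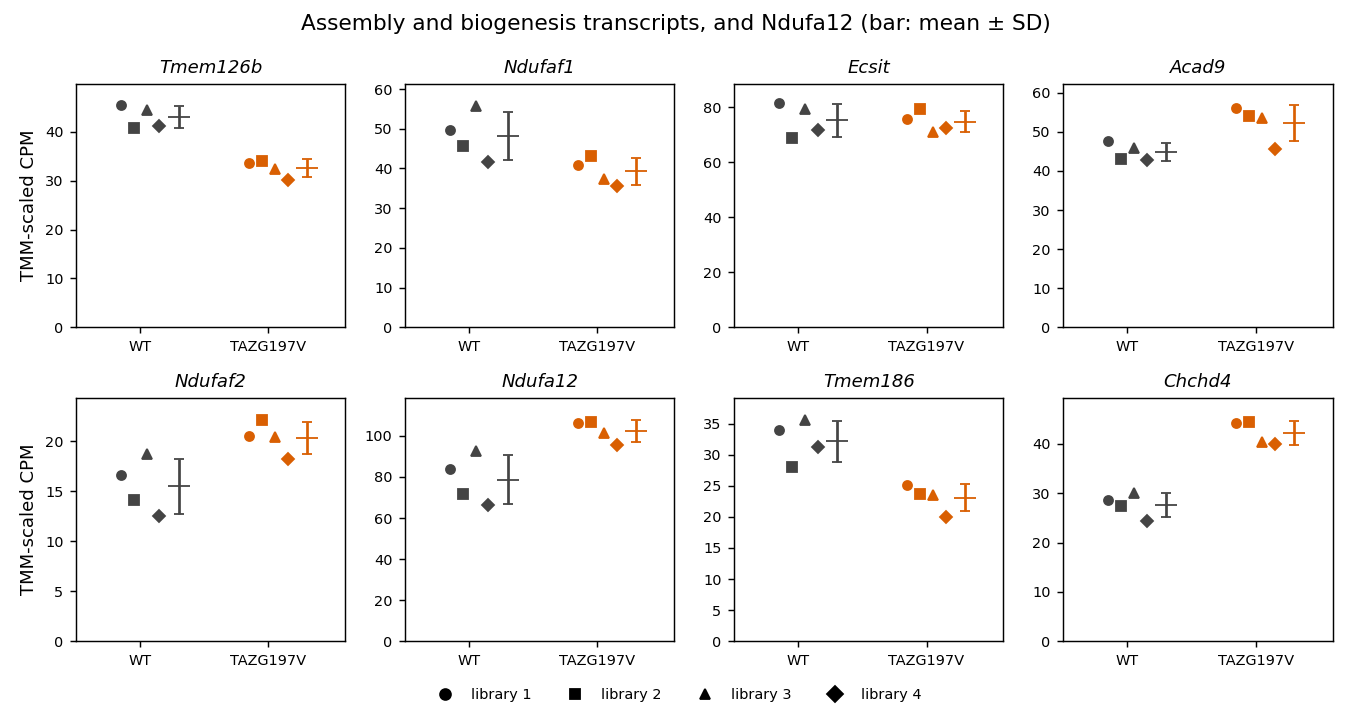
Level in TMM-scaled CPM (y axis, from 0) of the MCIA genes Tmem126b, Ndufaf1, Ecsit and Acad9, of the paralogs Ndufaf2 and Ndufa12, and of the biogenesis genes Tmem186 and Chchd4 in each library, with the mean ± SD (n = 4). Tmem126b and Tmem186 lie lower and Ndufa12 and Chchd4 higher in all TAZG197V libraries than in any WT library.

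Genes of the same pathway outside the rule were taken from a fixed list. Of 7 further biogenesis factors tested, 3 (42.9%) rose and 1 (14.3%) fell, beside 18.5% and 15.1% of all genes. Chchd4, which imports and oxidises intermembrane space proteins, changed by 0.62 ± 0.07 and Tmem186, an MCIA partner, by -0.51 ± 0.06 on the log2 scale (adjusted p = 0.000315 and 0.000532, edgeR), both without overlap. Of the 7 mitochondrially encoded subunits 5 were tested, and mt-Nd2 alone fell, by 0.37 (adjusted p = 0.0265, edgeR), a call made in 12 of 17 alternative fits. In the other complexes, 1 of 4 complex II genes (25%), 3 of 9 complex III genes (33.3%) and 3 of 16 ATP synthase genes (18.8%) fell, beside 15.1% of all genes, and 1 complex III gene (11.1%) rose, beside 18.5%. With so few genes per list these shares are descriptions, and that of ATP synthase was near the share over all genes. The rise (Uqcr10) was called in 4 of 18 alternative fits and the fall of Uqcrc1 in 8, and both were lost with the replicate number as a block (adjusted p = 0.0904 and 0.0649, edgeR). Sdhc was called in 15 of 18, Tmem126a, one of the biogenesis genes that rose, in 13, and the other called genes of these lists in all 18. Uqcr10, Uqcrc1 and Tmem126a were named after their values were seen. The medians were -0.18, -0.12 and -0.05, against -0.09 for the complex I subunits. The called gene with the largest fall in each was Atp5g3 (-0.38) for ATP synthase, Uqcrfs1 (-0.38) for complex III and Sdhc (-0.28) for complex II, on the log2 scale.

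Subunits that fell had longer exon annotations, with a median of 2246 bases against 1251 bases for those not called. Over the 36 subunits, Spearman's rho was -0.42 between log2 fold change and exon length and -0.42 between log2 fold change and WT level, given as descriptions over genes that share all 8 libraries. Over all genes tested, rho was -0.09 with exon length and 0.09 with mean count over the libraries, which stands here in place of WT level. The core subunits had a median of 2178 bases. The part of length in the calls was not tested.

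Promoters of 4 genes at the ends of the range are shown because they frame the largest fall (Ndufv3), a core subunit that fell (Ndufs3), and the paralog pair that rose (Ndufa12 and Ndufaf2). They come from RefSeq (GRCm38.p6, which shares coordinates with mm10), with 250 bases before and 50 after the annotated start, 5′ to 3′ on the gene's strand. Ndufv3 is at chr17:31519865-31520164 (plus strand), Ndufs3 at chr2:90904672-90904971 (minus), Ndufa12 at chr10:94198785-94199084 (plus) and Ndufaf2 at chr13:108158576-108158875 (minus). Capitals mark matches to the letters listed after the sequences.
Ndufv3: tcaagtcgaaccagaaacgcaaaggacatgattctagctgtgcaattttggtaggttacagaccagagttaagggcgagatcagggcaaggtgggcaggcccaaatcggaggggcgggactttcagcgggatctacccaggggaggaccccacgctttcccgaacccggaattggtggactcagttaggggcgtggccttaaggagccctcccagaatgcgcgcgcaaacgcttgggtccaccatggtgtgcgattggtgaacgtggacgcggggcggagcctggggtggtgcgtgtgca
Ndufs3: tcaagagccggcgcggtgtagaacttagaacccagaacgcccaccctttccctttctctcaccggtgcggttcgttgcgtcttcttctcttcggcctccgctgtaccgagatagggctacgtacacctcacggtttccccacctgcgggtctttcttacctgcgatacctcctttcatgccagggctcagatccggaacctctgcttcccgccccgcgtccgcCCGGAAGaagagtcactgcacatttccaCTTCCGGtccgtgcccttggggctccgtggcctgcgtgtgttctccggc
Ndufa12: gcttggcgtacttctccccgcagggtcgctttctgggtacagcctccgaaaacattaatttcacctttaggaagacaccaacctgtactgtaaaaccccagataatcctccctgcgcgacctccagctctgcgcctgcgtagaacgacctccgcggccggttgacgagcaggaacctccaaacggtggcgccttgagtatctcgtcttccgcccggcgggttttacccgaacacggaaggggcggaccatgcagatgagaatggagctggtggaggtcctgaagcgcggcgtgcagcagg
Ndufaf2: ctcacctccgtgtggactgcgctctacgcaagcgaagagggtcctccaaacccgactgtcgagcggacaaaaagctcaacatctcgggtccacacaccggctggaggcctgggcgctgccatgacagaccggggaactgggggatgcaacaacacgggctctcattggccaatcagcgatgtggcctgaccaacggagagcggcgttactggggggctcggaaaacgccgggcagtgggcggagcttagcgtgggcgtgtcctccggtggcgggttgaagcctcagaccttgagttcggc
Searched on both strands were AAGGTCA (estrogen-related receptors), GCATGCGC (NRF1), CCGGAAG (GABPA) and TGATGNAA (ATF4), which were counted separately where they overlap. Of the 4 promoters only that of Ndufs3 held a match, to CCGGAAG, once before the start and once just after it. Among the 44 members matched to a promoter, AAGGTCA occurred in 3 (6.82%, against 5.38% of 27025 genes), GCATGCGC in 5 (11.4% against 3.05%), CCGGAAG in 8 (18.2% against 9.93%) and TGATGNAA in 0 (against 4.51%). Of the 10 subunits that fell and had a promoter, 1 (Ndufs3) held any of these letters, as did 9 of the 22 subunits with a promoter that were not called lower, a difference that was not tested. A match describes these letters only, and its absence says that they are not in this window.

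How firmly each call held differed by gene. Under the 18 alternative fits, 11 of the 17 called members were called each time, among them Tmem126b, Ndufa12, Ndufs1, Ndufv3, Ndufa9, Ndufs3, Ndufs7, Ndufab1, Ndufa1 and Ndufa10. All 17 kept their direction in each of these fits. The calls of Ndufaf1 (15 of 18), Ndufaf2 (16), Ndufv1 (16), Acad9 (11), Ndufb3 (10) and Ndufa3 (7) depended on the fit.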

How the data were processed

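RNA from 8 mouse heart libraries was measured by single-end RNA sequencing. The authors demultiplexed reads with bcl2fastq 2.20.0, checked them with FastQC 0.11.9, aligned them to mm10 with STAR 2.7.3a and counted reads over exons with featureCounts (Subread 2.0.0). The deposited files give raw read counts for each Ensembl gene. How strand and multiply aligned reads were treated was not given in the sources used here. The 92 spike-in rows summed to 0 counts and were left out. Symbols came from GENCODE M21 (55144 of 55471 IDs matched).

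The fit used edgeR 4.0.16 in R 4.3.3 after filterByExpr (15084 genes kept) and TMM scaling. The quasi-likelihood F-test (two-sided, Benjamini-Hochberg over all genes tested) had 2 surrogate variables from svaseq (sva 3.50.0, seed 1) as covariates. The standard error is the size of the log2 fold change divided by the square root of F. Procedures were tested on simulated data. Total counts of 23055689 to 36301031 make counting error small for most members. The spread between libraries that the surrogate variables leave therefore sets the precision. Alternatives were DESeq2 1.42.0, other covariates, scaling, filters and cut-offs, and omission of libraries.

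By rule, values in every library were given for the called subunits and assembly factors with the largest changes and for the subunits highest and lowest per exon length, and the core subunits were given by range. Values in every library for Ndufs1, Ndufv1, Ndufs3, Ndufs7 and Ndufab1 were added after they were seen, as were the promoters shown. The members and lists were chosen with earlier results of these data known. The values of 1 member are not reported here, and counts, sums and medians include it.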

Additional observations from a re-analysis of the deposited data

Results flagged for a closer look

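Samples standing apart within a genotype were sought for each of the 50 members tested, and for the summed CPM of subunits and of assembly factors, by the gap of the highest or lowest library to its nearest neighbour, divided by the range of the 4 libraries, on log2 CPM for genes and on CPM for the sums. This was above Dixon's 95% critical value in 4 of 104 sets, where chance gives about 5.2 (1 in 20). In WT, Ndufaf8 was low in WT 4 (0.838), Ndufb2 was low in WT 4 (0.928) and Ndufs1 was high in WT 1 (0.857). In TAZG197V, Ndufaf8 was high in TAZG197V 2 (0.861). Of these genes only Ndufs1 was called, and it kept its call in each fit that left out 1 library.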

How the results depend on the processing

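Over the other fits 9 to 13 subunits were called lower, against 12. The subunit median ranged from -0.14 to -0.05 and stayed negative, while the assembly factor median ranged from -0.0044 to 0.09 and changed sign. With a fold change cut-off of 1.5, 0 subunits and 0 assembly factors were called in either direction, and 1843 genes in all against 5060, since no called member reached it. Assembly factors called higher numbered 1 in place of 2 under DESeq2, with 0 surrogate variables, with sequencing lane as covariate, with DESeq2 size factors, and when Ndufaf2, which shares 64.1% of its 50-base windows with another gene, was left out. Assembly factors called lower numbered 1 in place of 2 with 0 surrogate variables and with sequencing lane as covariate, and 3 under DESeq2, with 3 surrogate variables, with DESeq2 size factors and with no fold change cut-off. With 3 surrogate variables 3 were called higher. Apart from the cut-offs and the omission of Ndufaf2, which act by construction, the cause was not tested.

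Omitting 1 library at a time gave 0 to 2 assembly factors called higher (0 without TAZG197V 2, and 1 without WT 2, WT 3 or TAZG197V 1), 1 to 3 called lower (1 without WT 3, 3 without WT 2 or TAZG197V 3), 9 to 13 subunits called lower, 1 to 2 called higher (2 without WT 3), and 3675 to 4816 genes in all. Of 288 values of the 16 named members under other fits, 277 stayed on the same side of the adjusted p threshold, 11 no longer passed it and 0 changed direction. Counting the fold change cut-off too, 14 calls of these members were lost (Acad9 7, Ndufaf1 3, Ndufaf2 2 and Ndufv1 2).

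With the replicate block in place of the surrogate variables, 10 subunits were called lower and 1 higher, 2 assembly factors were called in each direction, and 4272 genes were called in all. All 15 members called with the block were among the 17, and Ndufb3 (adjusted p = 0.0618, edgeR) and Ndufa3 (0.0748) lost their calls. Same-numbered libraries had deviations correlated at 0.277, 0.0436, 0.280 and 0.416. Pairing was to be assumed only if each was over 0.1, which held for 3 of 4, so the fit without the block was kept. Leaving out the number 4 library of each genotype was decided after the data had been seen, and it gave 13 subunits called lower.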
